A study of Mus musculus with 2 samples.

Results

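Fibronectin, tenascins and the matricellular proteins were described through 9 genes, Fn1, Tnc, Tnxb, Postn, Tgfbi, Thbs1, Thbs2, Sparc and Sparcl1, of 43346 mouse genes in the tables. Members were found by matching gene identifiers, without their version, to these symbols in GENCODE M21 on mm10, and all 9 matched. The data are total RNA-seq libraries of whole lung from 2 newborn pups of mouse strain B6NCrl at postnatal day 0, untreated as far as the labels say, each made from both lungs of 1 pup (pup 1 is replicate 1, pup 3 is replicate 2). The labels place both pups in pregnancy 1, give them a single donor identifier and record that sex was not collected. There is 1 group, so the pups give levels with their spread and a difference between 2 libraries, but no comparison between conditions. Nothing but the pup numbers marks the libraries as separate animals, so the spread may be technical.

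Fibronectin is a secreted dimer that cells pull into fibrils through integrins, and these fibrils serve as a scaffold for collagen and other matrix proteins. Tenascins, thrombospondins, periostin, the TGF-beta induced protein and the SPARC proteins are mostly matricellular: they bind matrix, growth factors and cell surface receptors and adjust how cells attach, move and respond. In lung they are made largely by mesenchymal and vascular cells, and several are prominent while the alveolar walls form. Fibronectin, tenascin C and periostin transcripts are also spliced into alternative forms that differ in whole domains.

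The libraries held 42189536 (pup 1) and 37026165 (pup 3) expected counts over mouse genes, of which the 9 genes took 257395 and 213128. Expected counts are estimates in which reads shared by several features are divided between them. Markers of alveolar epithelium were abundant (5 of 5 detected, 86378 and 77945 TPM in sum), of which Sftpc alone held 77317 and 68981 TPM. Fibroblast (7 of 7), smooth muscle (5 of 5), endothelial (5 of 5), mesothelial (4 of 4), platelet (5 of 5) and macrophage markers (5 of 5) were detected in both pups as well. Detected means TPM 1 or more in both pups, which held for 60.3% of protein-coding genes. Liver (2 of 5) and cartilage markers (1 of 5) were low, at most 7.45 TPM in sum, and Matn1 had 0 counts in both libraries, where the limit that a count of 0 allows is 3 counts.

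The optional coding exons of Fn1, Tnc and Postn are shown first, because the transcript results below turn on which models carry them. Each was read from the GENCODE M21 transcripts, 5′ to 3′ on the sense strand, and each has a length that is a multiple of 3, so that its inclusion keeps the reading frame. Capitals in the extra domain A exon mark 21 bases that encode the loop known as a binding site of integrins α4β1 and α9β1.
Fn1 extra domain A exon (mm10 chr1:71603660-71603929, minus strand, 270 bases): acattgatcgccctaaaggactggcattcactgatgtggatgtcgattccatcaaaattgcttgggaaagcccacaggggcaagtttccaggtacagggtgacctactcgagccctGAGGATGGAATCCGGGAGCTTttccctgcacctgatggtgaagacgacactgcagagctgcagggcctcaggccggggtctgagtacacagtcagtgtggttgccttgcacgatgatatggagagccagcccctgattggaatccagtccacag
Fn1 extra domain B exon (mm10 chr1:71613763-71614035, minus strand, 273 bases): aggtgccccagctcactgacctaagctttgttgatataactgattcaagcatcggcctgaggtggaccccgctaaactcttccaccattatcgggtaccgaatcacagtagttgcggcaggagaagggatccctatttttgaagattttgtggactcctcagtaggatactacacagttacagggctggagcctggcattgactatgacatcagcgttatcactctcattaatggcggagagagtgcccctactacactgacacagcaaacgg
Tnc optional type III repeat exon (mm10 chr4:63984460-63984732, minus strand, 273 bases): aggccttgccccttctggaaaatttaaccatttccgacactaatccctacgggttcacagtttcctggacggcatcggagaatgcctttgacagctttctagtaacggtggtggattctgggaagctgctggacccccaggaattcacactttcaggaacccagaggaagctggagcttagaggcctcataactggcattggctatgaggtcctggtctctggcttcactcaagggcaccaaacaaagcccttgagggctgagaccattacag
Postn first optional exon (mm10 chr3:54380412-54380492, plus strand, 81 bases): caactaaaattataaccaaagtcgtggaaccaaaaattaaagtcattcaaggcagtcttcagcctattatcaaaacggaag
Postn second optional exon (mm10 chr3:54385671-54385754, plus strand, 84 bases): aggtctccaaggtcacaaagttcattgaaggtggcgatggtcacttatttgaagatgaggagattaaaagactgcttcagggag

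Sparc dominated the set. In TPM, which divides counts by effective length and scales each library to 1 total, Sparc stood at 3388 in pup 1 and 3196 in pup 3 (3292 ± 136, SD, n = 2). It ranked 24 and 25 among all mouse genes and held 75.4% and 73.9% of the 4493 and 4327 TPM that the 9 genes summed to. By counts, Sparc held 52.2% and 51.3% of the 9 genes together. Tgfbi followed at 360 and 373 TPM, Fn1 at 262 and 223, Sparcl1 at 221 and 233, and Postn at 178 and 214 TPM. Thbs1 (44.7 and 50.9 TPM) and Tnc (34.1 and 30.3 TPM) formed a middle tier. Thbs2 was low at 4.70 and 4.51 TPM, and Tnxb was under TPM 1 in both pups, at 0.74 and 0.88. The pup ranges of neighbours in this order did not overlap, apart from those of Fn1 and Sparcl1. The means of Sparcl1 and Postn were 1.16-fold apart, less than the difference between the pups for Postn, so their order is not set beyond that spread. In all, 8 of the 9 genes reached TPM 1 in both pups, against 33.1% of all mouse genes and 60.3% of protein-coding genes. The median of the 9 was 196 ± 25.6 TPM, against 15.7 ± 0.544 for protein-coding genes detected in both pups. This is a description, since the genes were chosen with levels in these libraries known.

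**Figure D1:**
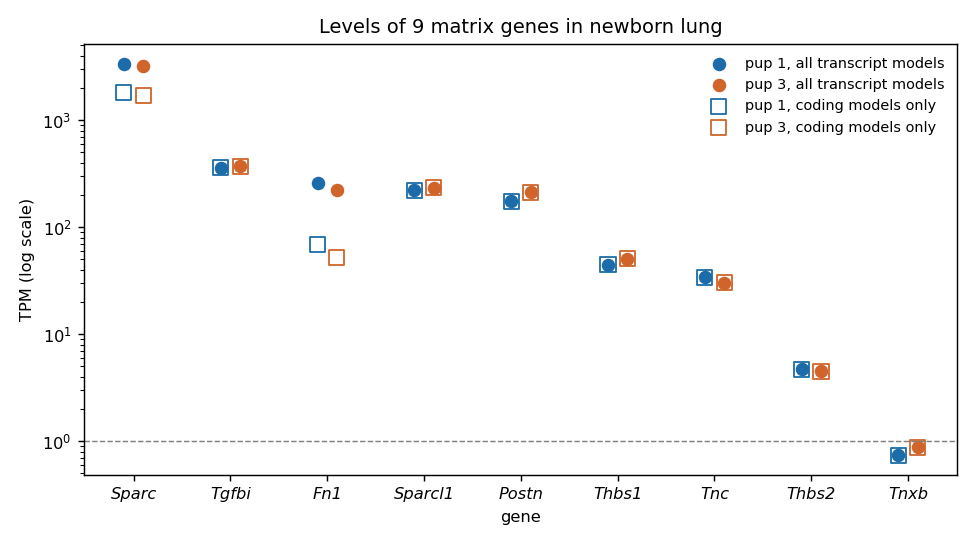
TPM of each gene (log axis) in pup 1 and pup 3, for all transcript models (filled circles) and for protein-coding models alone (open squares), with a dashed line at TPM 1. Levels run from 3292 TPM for Sparc to 0.81 TPM for Tnxb as means, and the squares leave the circles only at Sparc and Fn1.

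Fn1 (chromosome 1, 71585520 to 71653200, minus strand) encodes fibronectin. Its counts were 38458 (pup 1) and 27119 (pup 3), and its level 243 ± 27.1 TPM (n = 2). Pup 1 was the higher library. Most of this abundance was not placed on coding models. Of 17 transcript models in the tables, 9 are protein-coding, and together they held 26.1% and 23.3% of Fn1 TPM, or 68.5 and 52.0 TPM. Retained-intron models held 70.1% and 71.1%, and targets of nonsense-mediated decay 3.72% and 5.63%.

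A single retained-intron model, Fn1-202, held 59.88% of Fn1 TPM in pup 1 and 60.97% in pup 3. Fn1-202 covers 17 exons at the 3′ end of the gene in 4022 bases, of which 3396 lie in coding models and 626 do not. Those 626 bases are an intron beside the variable region, kept within an exon of 1183 bases. The model also runs from the exon before the extra domain A exon to the one after it without that exon. By counts instead of TPM, its share was 51.6% and 54.1%, because the model is shorter than the full-length coding ones. Which RNA these reads came from was not tested. How reads were divided among models, and whether strand was used, was not given in the sources used here, so this share and that of Sparc-205 below hold only for the deposited estimates.

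Among the full-length coding models of Fn1, those with at least 75% of the longest coding sequence, Fn1-214 led. It held 15.5% and 13.7% of all Fn1 TPM, at 40.5 and 30.7 TPM. It carries extra domain A but not extra domain B, and the whole variable region. Each of the other 6 full-length models stood at 7.68 TPM or less in both pups. Fn1-203 was listed at 4.41 TPM in pup 1 and at 0 in pup 3, and Fn1-213 at 0 in both, so values of single minor models are unsteady.

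Extra domain A was in 4 of the 7 full-length coding models, which held 73.6% of their TPM in pup 1 and 85.3% in pup 3. Pup 3 was the higher, on a base of 66.6 and 50.8 TPM in pups 1 and 3. That difference takes in unsteady minor models such as Fn1-203, which lacks the exon and was at 4.41 and 0 TPM. Extra domain B was in 1 minor model, Fn1-201, with 6.33% and 10.0%. This share rests on that model alone, at 4.22 and 5.1 TPM. The variable region, a single exon with alternative starts, was whole in models with 73.7% and 70.4% of the TPM. This form adds 120 codons, and a shorter one that adds 95 held 18.1% and 21.9%, and the form that lacks the region 8.25% and 7.63%. Extra domains A and B are the segments by which cellular fibronectin is usually told from the plasma form made by hepatocytes. The extra domain A share rests on leaving Fn1-202 out. When every model with both neighbouring exons was counted, it was 21.9% in pup 1 and 23.2% in pup 3, because Fn1-202 joins those neighbours directly.

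Tnc (chromosome 4, 63959785 to 64047015, minus strand) encodes tenascin C, a hexamer that is abundant in developing and injured tissue. It had 7606 and 5757 counts and stood at 32.2 ± 2.62 TPM. Pup 1 was slightly higher. All 4 of its models are protein-coding. Tnc-204 held 51.4% in pup 1 and 48.7% in pup 3, Tnc-201 26.1% and 31.2%, and Tnc-203 22.3% and 19.9%. Tnc-201 and Tnc-204 have identical coding sequences of 6057 bases. Tnc-204 adds 267 bases at its 5′ end, while Tnc-201 has no bases of its own. The split between them thus rests on those bases and on how shared reads were divided. Tnc-203 adds the 273-base type III repeat exon shown above. Transcripts with that repeat thus held 22.3% and 19.9% of the full-length Tnc TPM. Tenascin C varies in how many type III repeats it includes, and only this one is optional among the models in the tables.

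Tnxb (chromosome 17, 34670535 to 34719815, plus strand) encodes tenascin X, a large tenascin of connective tissue that is tied to collagen fibrils. Its 271 and 266 counts are well above the floor of 3 counts, but they spread over an effective length of 11339 bases in pup 1, which gives 0.81 ± 0.0990 TPM. Tnc exceeded Tnxb 46.0-fold in pup 1 and 34.5-fold in pup 3 by TPM. Tnxb-201 held 72.7% and 62.5% and Tnxb-202 the rest, on few counts. Of the other tenascins, Tnn stood at 1.36 and 1.90 TPM, and Tnr, a tenascin of the nervous system, had 2 and 1 counts.

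Postn and Tgfbi encode periostin and the TGF-beta induced protein, a pair of related proteins built on fasciclin domains. Tgfbi (chromosome 13, 56609523 to 56639562, plus strand) had 29964 and 26429 counts and 367 ± 9.32 TPM, with the smallest relative spread of the 9 genes. Postn (chromosome 3, 54361109 to 54391037, plus strand) had 16138 and 16145 counts and 196 ± 25.6 TPM, with the largest. Equal counts at different depth make Postn the higher in pup 3. Tgfbi exceeded Postn 2.03-fold in pup 1 and 1.74-fold in pup 3. Tgfbi has a single model in the tables. Postn-204, which carries neither optional exon, held 79.7% and 79.3% of Postn. Postn-206, a short coding model of 655 bases, held 7.87% and 10.6% of TPM on 1.56% and 2.14% of counts. Postn-201 held 5.50% and 4.65% and Postn-203 5.16% and 3.75%. Among full-length coding models the first optional exon was carried by 5.72% and 4.28% of TPM and the second by 6.08% and 5.30%. The model with both, Postn-202, was listed at 0 in both pups. Of the other genes with fasciclin domains, the scavenger receptor gene Stab1 stood at 30.6 ± 1.02 TPM. That level came from 1594 and 1509 counts, and the effective length behind it was not examined. Stab2, known from sinusoidal endothelium, was at 0.20 and 0.09 TPM.

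**Figure D2:**
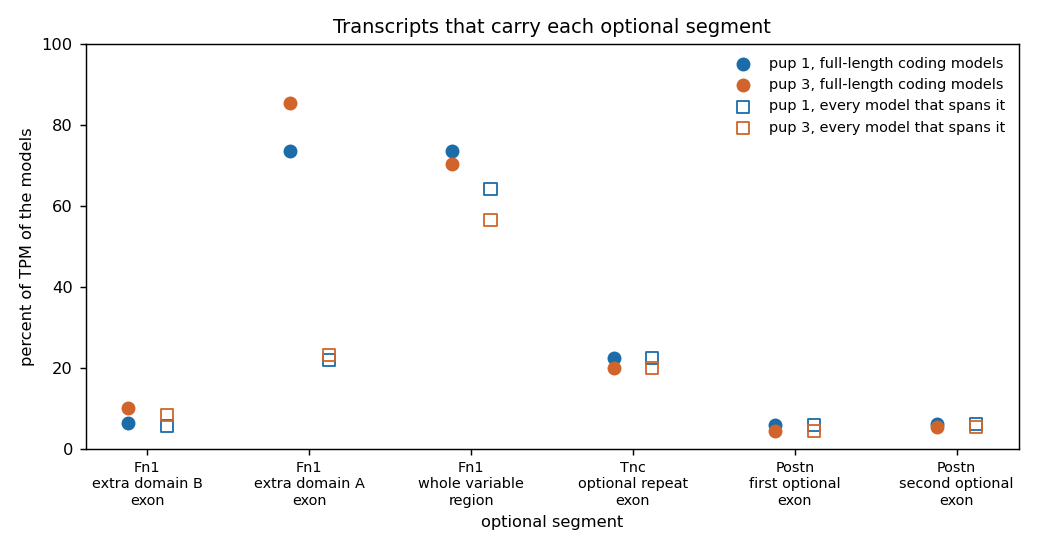
Percent of TPM held by models with each optional segment, in pup 1 (blue) and pup 3 (orange), among full-length coding models (filled circles) and among every model that spans the segment (open squares). The extra domain A exon moves from 73.6% and 85.3% to 21.9% and 23.2% with the choice of models, while the Tnc and Postn exons are at 22.3% or less.

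Thbs1 and Thbs2 encode thrombospondins that form trimers, bind the receptors CD36 and CD47 and limit angiogenesis. Thbs1 (chromosome 2, 118111876 to 118127133, plus strand) had 8291 and 8033 counts and 47.8 ± 4.38 TPM. Thbs2 (chromosome 17, 14665500 to 14694235, minus strand) had 884 and 721 counts and 4.61 ± 0.134 TPM. Thbs1 exceeded Thbs2 9.51-fold in pup 1 and 11.3-fold in pup 3. All TPM of both fell on a single coding model each, Thbs1-201 and Thbs2-201. Thbs3, a pentameric thrombospondin, was higher than either by TPM, at 69.3 ± 0.0495. By counts it lay below Thbs1, at 3596 in pup 1 and 3180 in pup 3. Its order against Thbs1 thus depends on the effective length, which was not examined for Thbs3. Thbs4 (0.67 and 0.69 TPM) and Comp (0.09 and 0.11 TPM) were under TPM 1. Platelets carry thrombospondin protein, and the 5 platelet markers summed to 184 and 175 TPM, of which Pf4 held 143 and 128. Their part in the Thbs1 level was not tested.

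Sparc and Sparcl1 encode SPARC, a collagen-binding protein also called osteonectin, and its longer relative hevin. Sparc (chromosome 11, 55394500 to 55423183, minus strand) had 134300 and 109347 counts. Sparcl1 (chromosome 5, 104079111 to 104113733, minus strand) had 21483 and 19311 counts and 227 ± 8.81 TPM. Sparc exceeded Sparcl1 15.3-fold in pup 1 and 13.7-fold in pup 3 by TPM. On coding models alone the ratio was 8.20-fold and 7.35-fold.

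The ratios differ because of Sparc-205, a retained-intron model of 741 bases that held 46.4% and 46.2% of Sparc TPM. By counts it held 24.2% and 23.8%. Of its bases, 647 lie in coding models and 94 do not. Full-length Sparc-201 and Sparc-202, whose coding sequences differ by 3 bases, held 24.2% and 16.1% of TPM in pup 1 and 23.9% and 17.7% in pup 3. Sparc-206, a coding model of 640 bases, held 13.1% and 12.1%. Coding models summed to 1811 and 1715 TPM, so Sparc led the 9 genes on that measure too. Other members of the SPARC family were led by Fstl1, a secreted glycoprotein gene, at 288 ± 19.2 TPM, followed by Spock2 at 39.0 ± 1.87 and Smoc2 at 27.6 ± 0.693 TPM. Smoc1, Spock1 and Spock3 were under TPM 1 in both pups, at 0.17 to 0.43 TPM.

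**Figure D3:**
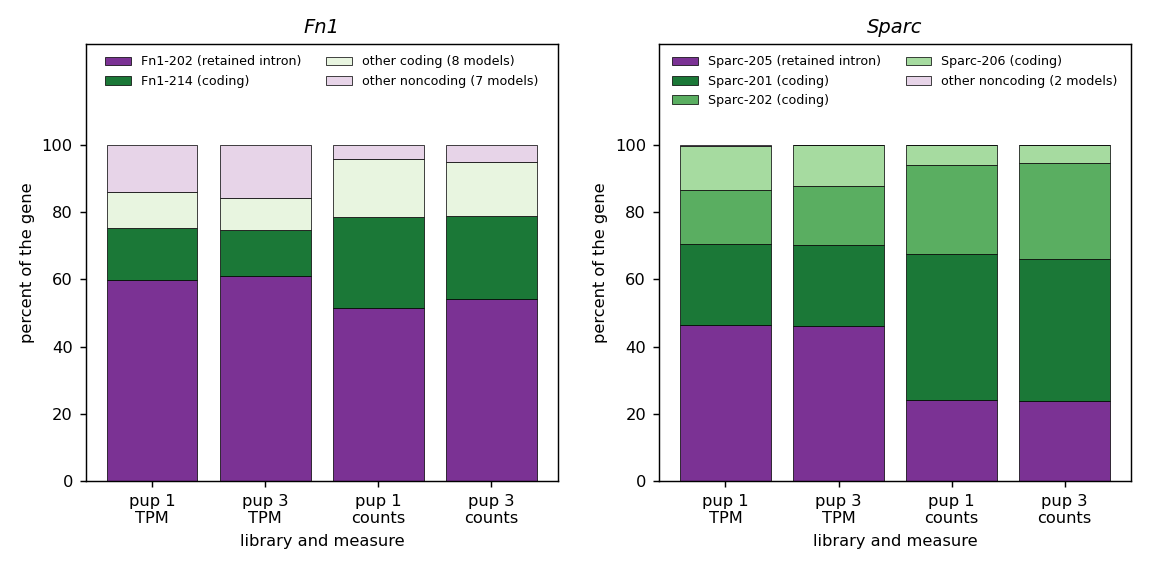
Percent of Fn1 (left) and Sparc (right) held by transcript models in each pup, by TPM and by expected counts, with retained-intron and other noncoding models in purple and coding models in green. Fn1-202 is the largest part of Fn1 on both measures, while Sparc-205 goes from 46.4% of TPM to 24.2% of counts in pup 1.

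Length matters for the place of Fn1 in the order. The deposited Fn1 TPM rests on effective lengths of 4551 and 4419 bases, which the short models pull below the 8043 bases of Fn1-214. With all Fn1 counts placed on Fn1-214, the level was 137 ± 18.2 TPM, and on coding models alone 60.2 ± 11.7 TPM. Either way Fn1 went from place 3 to place 5, below Sparcl1 and Postn. Sparc on Sparc-201 stood at 1850 ± 57.6 TPM and remained first. The places of the other genes below Postn were the same on all 3 measures.

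The 9 genes also differ in the arginine-glycine-aspartate tripeptide that many integrins bind. Codons for it (CGN, AGA or AGG, then GGN, then GAC or GAT) were searched in frame on the coding strand of the leading coding model of each gene. They were found in 4 of the 9 genes, Fn1 (2 sites), Tgfbi, Thbs1 and Thbs2 (1 each), against 7.38% of 21019 protein-coding genes by their longest coding sequence. The share with a match was larger among longer proteins. Among genes within 20% of their protein length, 26.9% held such codons for Fn1, 9.83% for Tgfbi, 18.8% for Thbs1 and 18.7% for Thbs2. For the genes without a match, that share was 22.8% for Tnc, 30.6% for Tnxb, 10.5% for Postn, 3.62% for Sparc and 8.78% for Sparcl1. No match says only that these letters are not in the models of Tnc, Tnxb, Postn, Sparc and Sparcl1. The sites are shown with 9 bases on each side, 5′ to 3′, with the 3 codons in capitals.
Fn1, codon 1523 (mm10 chr1:71606737-71606763, minus strand): gtcactggcCGTGGGGACagtccagca
Fn1, codon 2090 (mm10 chr1:71597434-71597460, minus strand): catgttcccAGGGGAGACgtagactac
Tgfbi, codon 642 (mm10 chr13:56637146-56637172, plus strand): ccacaagaaCGAGGAGATgagctggca
Thbs1, codon 927 (mm10 chr2:118122680-118122899, plus strand, across an intron): ggtgatggcCGAGGTGACgcctgcaaa
Thbs2, codon 928 (mm10 chr17:14671475-14673144, minus strand, across an intron): ggtgacggcCGAGGTGACatttgtaaa

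The first Fn1 site is the classical cell-binding site, in an exon that Fn1-202 carries as well. The second lies in the stretch that both forms of the variable region add, so 91.7% and 92.4% of the full-length coding Fn1 TPM included it. Thbs1 and Thbs2 shared the same 9 letters of the 3 codons, at codons 927 and 928.

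Receptors for these proteins were detected in 14 of 15 cases. Itgb1, the common beta chain of the fibronectin receptors, stood at 315 ± 16.7 TPM, Cd36 at 306 ± 9.01 and Sdc4, a syndecan that acts with integrins on fibronectin, at 223 ± 45.5 TPM. Itgb8 was under TPM 1, at 0.76 TPM in both pups. The CCN family and osteopontin, further matricellular proteins, had 5 of 7 genes detected, led by Ccn1 (112 ± 4.21), Spp1 (71.3 ± 8.17) and Ccn2 (55.1 ± 9.77 TPM), with Ccn6 under TPM 1 in both pups. The TGF-beta and latency list (6 of 6) was led by the receptor gene Tgfbr2 (72.6 ± 4.14), Tgfb2 (47.3 ± 5.26) and the latency protein gene Ltbp1 (22.5 ± 1.77 TPM). Matrix partners (10 of 10) were led by Col3a1 (555 ± 17.3), Col1a1 (416 ± 7.69) and Col4a1 (279 ± 8.92 TPM), each far below Sparc. Among 5 splicing regulators listed for fibronectin, all detected, Srsf5 (427 ± 55.8), Srsf3 (274 ± 2.12) and Srsf1 (86.3 ± 14.1 TPM) were highest. Over these 9 lists, 46 of 56 genes reached TPM 1 in both pups, against 60.3% of protein-coding genes and 33.1% of all mouse genes. The lists were chosen with earlier results of these data known.

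**Figure D4:**
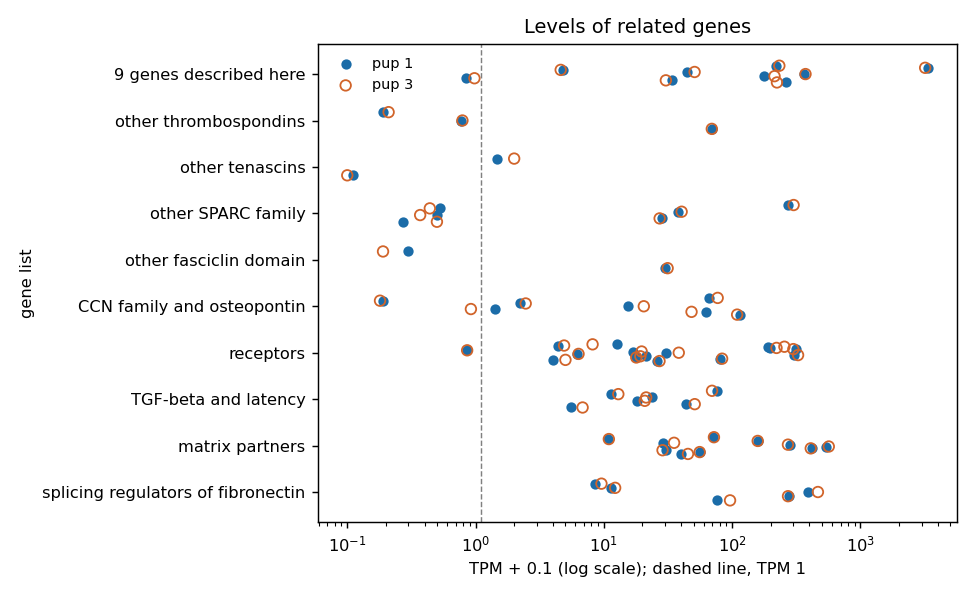
TPM + 0.1 (log axis) of each gene in pup 1 (filled blue) and pup 3 (open orange), by list, with a dashed line at TPM 1. Sparc lies to the right of every gene of the 9 related lists, and Tnr lies at the left edge.

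Between the pups, none of the 9 genes differed by the size rule, which asks for at least 2-fold, at least 50 counts in sum and a counting interval that leaves out 1. Over all genes tested, 1.40% passed (221 of 15790), 0.659% higher in pup 1 and 0.741% higher in pup 3, so a count of 0 in 9 is near that background. Scaling was by TMM, a trimmed mean of ratios, and this comparison of 1 library with 1 library carries no p-value. The largest ratio was that of Fn1, 1.28-fold higher in pup 1 (95% counting interval 1.26 to 1.30, log2 0.36). Tnc was 1.19-fold higher in pup 1 (1.15 to 1.23) and Sparc 1.11-fold (1.10 to 1.12). Postn was at 0.902 of its pup 3 level (0.883 to 0.922) and Thbs1 at 0.931 (0.903 to 0.961), though with scaling by spike-ins the log2 ratio of Thbs1 was 0.04. The intervals of Sparcl1 (0.985 to 1.02) and Tnxb (0.773 to 1.09) held 1, and those of Tgfbi (1.01 to 1.04) and Thbs2 (1.00 to 1.22) lay just above it, though the log2 ratio of Tgfbi was -0.05 on log2(TPM + 1). The intervals cover counting error only. The central 68% of log2 ratios over all tested genes ran from -0.23 to 0.21, and Fn1 and Tnc were the members outside it. For the 3501 genes with at least 5000 counts it ran from -0.13 to 0.18, and Postn at -0.15 lay outside that narrower range as well.

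**Figure D5:**
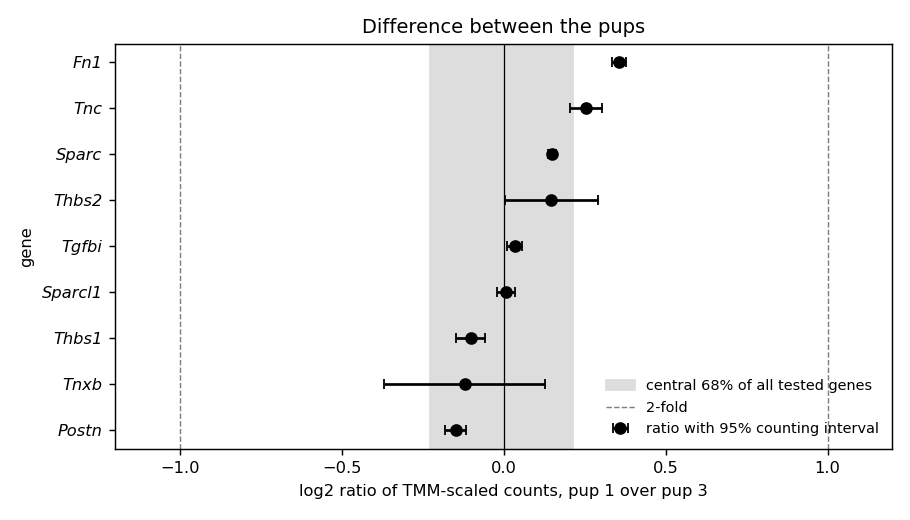
Log2 ratio of TMM-scaled counts, pup 1 over pup 3, with 95% counting intervals. The grey band is the central 68% of 15790 tested genes, from -0.23 to 0.21, and dashed lines mark 2-fold. Fn1 at 0.36 and Tnc at 0.25 lie above the band, and no gene reaches 2-fold.

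The median log2 ratio of the 9 genes was 0.03, against 0.01 over all tested genes. In whole tissue, fewer cells of a type and less RNA per cell cannot be told apart. Log2 ratios lay above 0 for 51.0% of all tested genes and for 58.6% of those with at least 5000 counts. They lay above 0 for 4 of 5 smooth muscle markers, with Myh11 at -0.39 the exception, and the list summed to 524 and 458 TPM in pups 1 and 3. The same held for 4 of 5 macrophage markers (146 and 139 TPM in sum) and all 3 tested liver markers (6.88 and 4.65 TPM over the list). For alveolar epithelial markers it was 4 of 5 (86378 and 77945 TPM, mostly Sftpc), with Ager at -0.02 the exception. Of fibroblast markers, 4 of 7 lay above 0, with sums of 1984 and 1968 TPM. For endothelial and platelet markers it was 2 of 5 each, for tested cartilage markers 1 of 2, and for mesothelial markers 0 of 4. The part of these cell types in the Fn1 and Tnc ratios was not tested. Of 52 tested genes on the 9 related lists, 1 passed the size rule, Smoc1, with 18 counts in pup 1 and 37 in pup 3 (log2 ratio -1.17), against 0.741% of all tested genes in that direction.

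Overlap with other genes is slight for the 9. The annotated genes that overlap them had at most 40 counts in pup 1 and 43 in pup 3, for 8030451A03Rik at Tnc. Sparc, Tgfbi, Postn and Thbs2 overlap none.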

How the data were processed

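RNA longer than 200 nt from lungs of 2 pups was sequenced as total RNA, with 10 ng per library, per the labels. The authors deposited gene and transcript tables with expected counts, TPM, FPKM and isoform percent (what percent of its gene each transcript makes up), per the file headers. The deposited FPKM and posterior mean TPM served as alternatives, and effective length was used as the authors gave it. Text files beside the tables name mm10 and annotation M4. Aligner, counting program and strandedness were not given in the sources used here.

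Names, biotypes, exons and sequences came from GENCODE M21, a later annotation of that assembly. It matched 42462 of 43346 genes and all 43 transcript models of the 9 genes, 38 of them with equal length. Rounding of the expected counts preceded TMM scaling (edgeR 4.0.16 in R 4.3.3). Log2 ratios carry a prior count of 0.5, and intervals are exact conditional binomial ones at 95%. The size rule was tested on simulated data. A floor of 3 counts is 0.0711 CPM (pup 1) or 0.0810 CPM (pup 3) and covers counting error only. The members, the lists and the rule for naming genes were chosen with earlier results of these data known. That rule takes all 9 members and, from each related list, the 3 highest genes, those under TPM 1 in both pups and those past the size rule. Transcripts are named from a mean share of 5%, and Fn1-201, Fn1-203, Fn1-213, Postn-202 and Postn-203 were named after their values were seen. No gene was named for likeness of pattern, because 2 libraries of 1 group give no profile. Protein was not measured.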

Additional observations from a re-analysis of the deposited data

How the results depend on the processing

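Of 217 recomputed values, 168 stayed within the spread or count limit and 49 moved. Part of the 168 could not have moved, so the tally does not measure robustness. With 2 pups, the value without either pup always lies within the SD of the mean. Rescaled FPKM is the same measure as TPM. The summed TPM of the 9 genes, 4410, was 2695 on protein-coding models alone and 2846 with all counts on the leading coding model, an alternative chosen after seeing the data. It ran from 4327 to 4493 when either pup was left out. The coding share of that sum, 61.1%, ran from 60.5% to 61.7%. None of the 9 genes passed the size rule under any scaling, prior, filter or fold tried. Genes past it, 104 higher in pup 1 and 117 in pup 3, became 161 and 82 with ERCC spike-in scaling, 31 and 54 with log2(TPM + 1), 271 and 319 from at least 10 counts, 321 and 380 with no filter, and 360 and 439 at 1.5-fold. The share higher in pup 1 was 47.1% with TMM, 66.3% with spike-ins and 36.5% with log2(TPM + 1). ERCC scaling rests on 317 and 316 counts. Related genes past the rule, 1 in the main setting, were 0 with log2(TPM + 1) and 2 at 1.5-fold. Log2 ratios of Fn1 (0.23 to 0.50), Tnc (0.16 to 0.40), Sparc (0.08 to 0.29) and Thbs2 (0.05 to 0.29) stayed above 0 under the 6 settings and that of Postn (-0.27 to -0.01) below, while those of Tgfbi, Sparcl1, Thbs1 and Tnxb changed sign in at least 1. Counting every model with a form of the exon, the whole variable region of Fn1 was at 60.4% and the form without it at 22.9%. That count leaves out Fn1-202, whose exon there has 1183 bases, while the matching count for extra domain A included Fn1-202. A ratio between the pups cannot be had with either left out. No paired analysis was possible because there is 1 group.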
